A study of Mus musculus with 16 samples.

Results

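The mouse autosomes were cut into windows of 10 Mb, and each window was described by the RNA level of its genes in MSI tumours relative to CIN tumours. The windows were kept by their genes' level over all libraries and by their number of genes. The shifted windows, runs and named windows described below were selected on this difference between the tumour types. A window's members are the protein-coding genes that start inside it and reach a mean of at least 5 CPM, the gene's count scaled to a common library total, over 16 libraries. Of 20825 autosomal protein-coding genes, among 54532 genes in all, 11296 reached that level. They fell into 255 windows, of which 251 held 5 or more genes and were kept, with 11290 genes between them. A window's difference is the median over its genes of the mean log2 CPM in MSI tumours minus that in CIN tumours. The median of all window genes, 0.02, was subtracted, so that 0 stands for the typical gene. Since the differences were the basis of selection, they are given as values with no test. Windows are named by their GRCm38 position in Mb.

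The tumours grew from MC38 cells, a colon carcinoma line from C57BL/6 mice, implanted into the descending colon's wall, and the line was either microsatellite unstable (MSI) or chromosomally unstable (CIN). All mice were given dendritic cells, grown from bone marrow, by injection into the abdomen on days 1, 6 and 12, and the tumours were taken on day 15. The dendritic cells had been loaded for 30 minutes, with Lipofectamine, with 2 µg of DNA, which came from MSI or CIN cells and was either free cytosolic DNA or micronuclei. The 2 tumour types, 2 DNA sources and 2 DNA forms made 8 groups of 2 libraries, so 8 libraries stand for each tumour type. RNA of 3 biological replicates was combined in equal amounts, and the labels do not say if every library had a separate pool. Any p-value therefore measures a spread between libraries that may be technical. Only 1 line per tumour type is named, so its kind of instability and its other features cannot be told apart. Copy number in DNA was not analysed here, nor was any library from mice without loaded dendritic cells.

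The number of copies of a chromosome segment is one of the things that set how much RNA its genes make. When a segment is gained or lost, many of its genes tend to shift a little in the same direction, although feedback on single genes can offset part of the shift. Tumours with chromosomal instability missegregate whole chromosomes or arms during mitosis, whereas mismatch repair defects mainly leave small changes in repeated sequence. In bulk tumour tissue the RNA of tumour cells is mixed with that of host cells, and fewer cells of a type cannot be told apart from less RNA per cell. Host cells carry normal chromosomes and dilute any difference that belongs to the tumour cells.

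The promoters of 4 genes are shown as examples from shifted windows, 2 genes in each direction: Kitl and Slc35d1 were higher in MSI tumours, Agfg1 and Capn2 lower. In each direction the gene with the lowest adjusted p of every window was taken from the named genes described further on, and the first 2 whose RefSeq start lies within 1 kb of the start in the count table are printed, which passed over Sema3a and Col5a2. Each runs from 250 bases before to 50 bases after the start of the gene in RefSeq, build GRCm38.p6, is written 5′ to 3′ on the gene's own strand, and has the dinucleotide CG in capitals, which reads the same on both strands.
Kitl: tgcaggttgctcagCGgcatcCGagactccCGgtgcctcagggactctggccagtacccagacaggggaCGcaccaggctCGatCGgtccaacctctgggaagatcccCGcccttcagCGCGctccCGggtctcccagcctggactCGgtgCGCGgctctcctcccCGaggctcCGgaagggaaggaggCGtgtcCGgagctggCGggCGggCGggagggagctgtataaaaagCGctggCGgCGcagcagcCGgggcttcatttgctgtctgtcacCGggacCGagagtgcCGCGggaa
Slc35d1: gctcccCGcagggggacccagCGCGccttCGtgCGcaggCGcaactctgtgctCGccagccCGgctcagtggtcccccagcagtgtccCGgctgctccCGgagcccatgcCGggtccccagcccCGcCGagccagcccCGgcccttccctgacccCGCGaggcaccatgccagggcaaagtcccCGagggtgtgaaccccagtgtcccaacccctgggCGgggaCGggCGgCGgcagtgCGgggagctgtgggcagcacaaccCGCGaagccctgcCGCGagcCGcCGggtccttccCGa
Agfg1: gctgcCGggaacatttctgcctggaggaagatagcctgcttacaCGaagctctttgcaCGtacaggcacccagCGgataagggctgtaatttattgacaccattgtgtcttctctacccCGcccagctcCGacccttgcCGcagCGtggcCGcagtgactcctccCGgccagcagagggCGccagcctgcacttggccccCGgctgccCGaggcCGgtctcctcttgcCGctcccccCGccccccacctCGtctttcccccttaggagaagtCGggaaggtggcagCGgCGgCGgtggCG
Capn2: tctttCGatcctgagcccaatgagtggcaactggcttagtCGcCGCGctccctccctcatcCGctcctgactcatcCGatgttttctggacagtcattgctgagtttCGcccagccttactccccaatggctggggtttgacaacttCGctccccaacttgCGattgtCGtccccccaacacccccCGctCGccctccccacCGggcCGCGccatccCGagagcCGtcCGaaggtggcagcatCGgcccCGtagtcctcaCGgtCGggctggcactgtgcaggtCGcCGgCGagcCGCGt
They lie at chr10:100015571-100015870 (plus strand), chr4:103215127-103215426 (minus strand), chr1:82839210-82839509 (plus strand) and chr1:182517561-182517860 (minus strand). The Kitl promoter holds 28 CG and the Slc35d1 promoter 29. Those of Agfg1 and Capn2 hold 22 and 27. Among all promoters in the RefSeq table, 14.01% held at least as many CG as Kitl, 12.7% as Slc35d1, 23.3% as Agfg1 and 15.4% as Capn2. The median promoter GC content was 61.8% in windows higher in MSI tumours by at least 0.2, and 61.7% both in windows lower by at least 0.2 and in the others. A match to CG is a description of these letters.

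The libraries held 11561955 to 17937501 counts, and the libraries of each group differed by far more than counting noise (chi-square per degree of freedom 21.4 to 238). Tissue content varied between libraries. The 10 colon epithelium markers, such as Epcam and Muc2, summed to 397 to 8913 CPM in MSI tumours and to 95.3 to 5884 CPM in CIN tumours. Within MSI tumours the libraries numbered 1 had 397 to 2820 CPM of these markers and those numbered 2 had 5788 to 8913 CPM, without overlap. The 7 smooth muscle markers were split in the same way, at 413 to 1250 and 2060 to 5098 CPM. Skeletal muscle markers stood high in 5 libraries: 1 from MSI tumours (CIN micronuclei 1) and 4 from CIN tumours (MSI micronuclei 1 and 2, MSI free 2 and CIN free 2). The 5 endothelial markers summed to 87.5 to 137 CPM in MSI tumours against 52.8 to 98.9 CPM in CIN tumours, and the 5 fibroblast markers to 696 to 1439 against 1188 to 2541 CPM. Immune markers overlapped, at 198 to 306 and 217 to 303 CPM. No marker was at 0. The part of this tissue content in the window differences was not tested directly. Values without the muscle-rich libraries, which leave 7 MSI and 4 CIN libraries, are given beside several results and in a paragraph on tissue content.

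Most windows differed little between the tumour types, and those that differed lay on 13 of 19 chromosomes, 32 of 45 of them beside another that differed in the same direction. The 251 differences had an SD of 0.14, from -0.38 to 0.51, and 144 windows lay within 0.1 of 0. A window was counted as shifted at 0.2 or beyond, which is 1.15-fold. By that measure 20 windows were higher in MSI tumours (7.97%) and 25 lower (9.96%), 45 in all (17.9%). For comparison, a change from 2 to 3 copies with RNA in proportion and no host cells would give 0.58. The level of a window in a library is the median over its genes of log2 CPM minus each gene's mean over the 16 libraries. All 8 MSI levels lay on one side of all 8 CIN levels in 49 windows (19.5%), 25 higher in MSI tumours (9.96%) and 24 lower (9.56%). Of the 45 shifted windows, 35 had groups that did not overlap. Over all 251 windows, 158 had the same sign in each of the 4 DNA treatments. The SD over these 4 matched treatments was 0.04 in the median window. Each treatment value averages libraries numbered 1 and 2, so this SD leaves out the spread between replicate numbers, which is given further on.

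**Figure D1:**
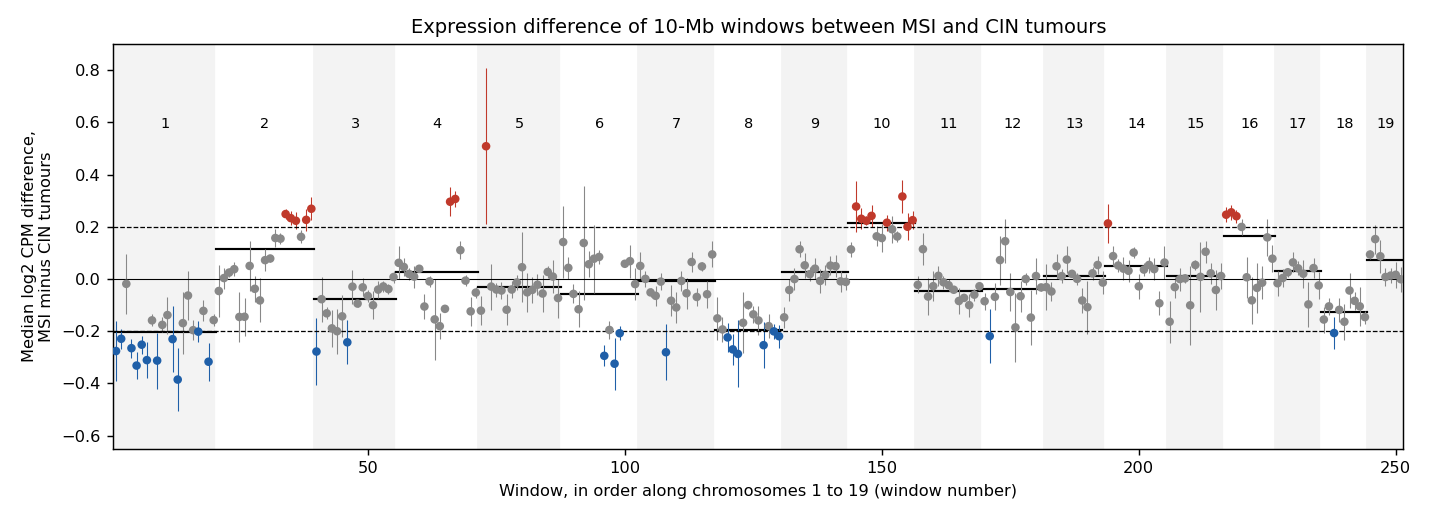
Difference between MSI and CIN tumours in log2 CPM (vertical axis) for each of the 251 windows in order along chromosomes 1 to 19 (horizontal axis), with error bars of 1 SD over the 4 DNA treatments and black bars at the chromosome medians. Red points are the 20 windows higher by at least 0.2 and blue points the 25 lower by at least 0.2 (dashed lines), and runs of adjacent coloured points are seen on chromosomes 1, 2, 4, 6, 8, 10 and 16.

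Chromosomes 1 and 8 were lower in MSI tumours and chromosome 10 higher, each in every window, while chromosomes 16 and 2 were higher over part of their length. On chromosome 1 the 688 genes had a median difference of -0.20 ± 0.02 (SD over 4 treatments), a ratio of 0.87, and all 20 windows were negative. Its level was -0.15 to -0.05 in the MSI libraries (median -0.11) and 0.07 to 0.14 in the CIN libraries (median 0.11), with no overlap. Of its windows 11 were shifted, all downwards. On chromosome 8 the difference was -0.20 ± 0.04, all 13 windows were negative, and 6 were shifted. MSI levels of -0.11 to -0.08 there did not overlap CIN levels of 0.03 to 0.16.

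Chromosome 10 was the counterpart on the higher side, at 0.21 ± 0.02, a ratio of 1.16. All 13 of its windows were positive, from 0.11 to 0.32, and 8 were shifted. Its level was 0.02 to 0.17 in MSI libraries (median 0.12) and -0.12 to -0.10 in CIN libraries (median -0.11). Chromosome 16 followed at 0.16 ± 0.02 and chromosome 2 at 0.11 ± 0.01, each with library groups that did not overlap, at 0.03 to 0.11 against -0.11 to -0.05 and 0.03 to 0.08 against -0.08 to -0.05. On chromosome 16, 7 of 10 windows were positive and the 3 shifted ones lay between 0 and 30 Mb. On chromosome 2, 14 of 19 were positive and the 5 shifted ones lay beyond 130 Mb. Chromosome 14 was the only other chromosome without overlap, and its difference was small, at 0.05. Chromosome 18 was lower by -0.12 ± 0.03 with 9 of 9 windows negative, but its library groups overlapped, and it was at -0.07 without the 5 muscle-rich libraries and at -0.06 with tissue markers as covariates. The remaining 12 chromosomes lay between -0.08 and 0.07. Of these, chromosome 19 went from 0.07 to 0.04 and chromosome 6 from -0.06 to -0.04 without the muscle-rich libraries.

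**Figure D2:**
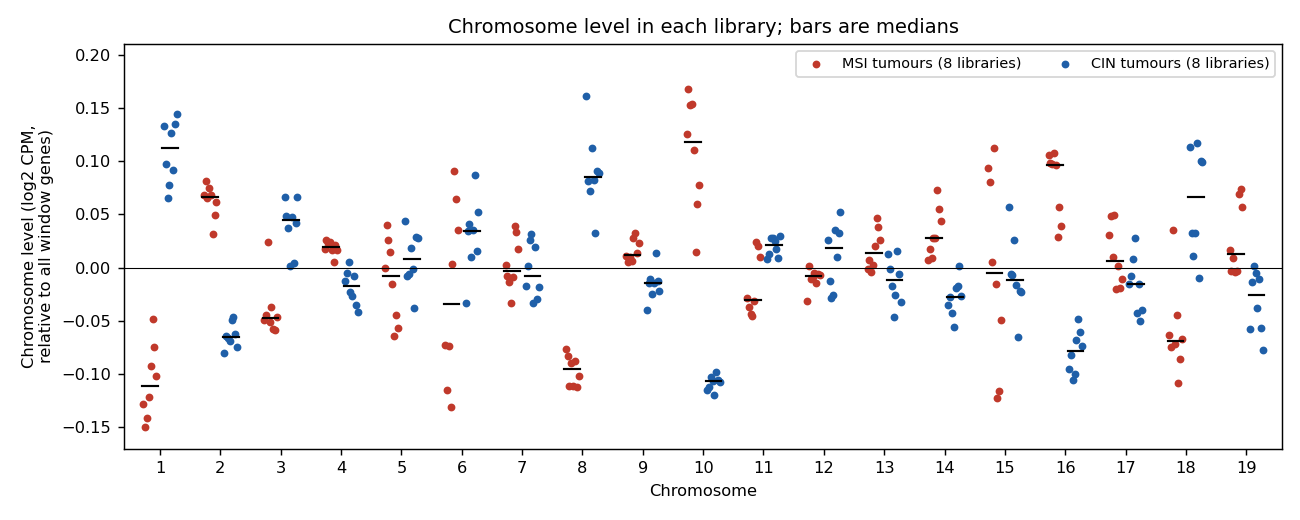
Level of each autosome (horizontal axis) in every library, as the median over its genes of log2 CPM relative to the gene's mean and to all window genes (vertical axis), with MSI tumours in red, CIN tumours in blue and black bars at the median of 8 libraries. The red and blue points separate on chromosomes 1, 2, 8, 10, 14 and 16 and overlap on the others, and on chromosomes 6 and 15 the red points fall into an upper and a lower set.

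Of the 45 shifted windows 32 stood in 12 runs, a run being at least 2 adjacent windows shifted the same way. Chromosome 1 held 3 runs lower in MSI tumours. From 0 to 20 Mb the median was -0.23 ± 0.06, with 22 of 25 genes lower. From 30 to 70 Mb it was -0.27 ± 0.03, with 112 of 147 genes lower. From 110 to 130 Mb it was -0.37 ± 0.11, with 24 of 31 genes lower. That last run was at -0.25 without the muscle-rich libraries, at -0.24 with tissue covariates and at -0.16 without the genes that edgeR called. In the longest of these, 30 to 70 Mb, the level was -0.16 to -0.10 in MSI libraries (median -0.12) and 0.04 to 0.23 in CIN libraries (median 0.11), so the lowest CIN library stood above the highest MSI library.

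Chromosome 8 held a pair of runs. From 20 to 50 Mb the median was -0.26 ± 0.08, with 82 of 109 genes lower, and from 110 to 130 Mb it was -0.22 ± 0.04, with 99 of 133 genes lower. The level of the first was -0.15 to -0.08 in MSI and 0.04 to 0.23 in CIN libraries. In the second, CIN libraries reached down to 0.00 and MSI libraries up to -0.08. The run on chromosome 6, from 100 to 120 Mb, had a median of -0.27 ± 0.03 with 55 of 72 genes lower, and it was the only run whose groups overlapped. Without the muscle-rich libraries it was at -0.18. Its level was -0.24 to -0.16 in the MSI libraries numbered 1 and -0.06 to 0.07 in those numbered 2, against 0.06 to 0.17 in CIN libraries.

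Higher in MSI tumours were 6 runs on 4 chromosomes. On chromosome 10 they spanned 10 to 50 Mb (0.24 ± 0.04, 85 of 106 genes higher) and 100 to 130 Mb (0.23 ± 0.05, 107 of 131 genes higher). On chromosome 2 they covered 130 to 160 Mb (0.23 ± 0.02, 143 of 175 genes) and 170 to 190 Mb (0.25 ± 0.02, 58 of 64 genes). Chromosome 16 was higher from 0 to 30 Mb (0.24 ± 0.01, 133 of 160 genes). The run on chromosome 4, from 100 to 120 Mb, had the largest median of the higher runs, 0.30 ± 0.05, a ratio of 1.23, with 104 of 122 genes higher. Its level was 0.13 to 0.16 in MSI libraries (median 0.14) and -0.25 to -0.06 in CIN libraries (median -0.13). In none of these 6 runs did an MSI library fall to the level of a CIN library.

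**Figure D3:**
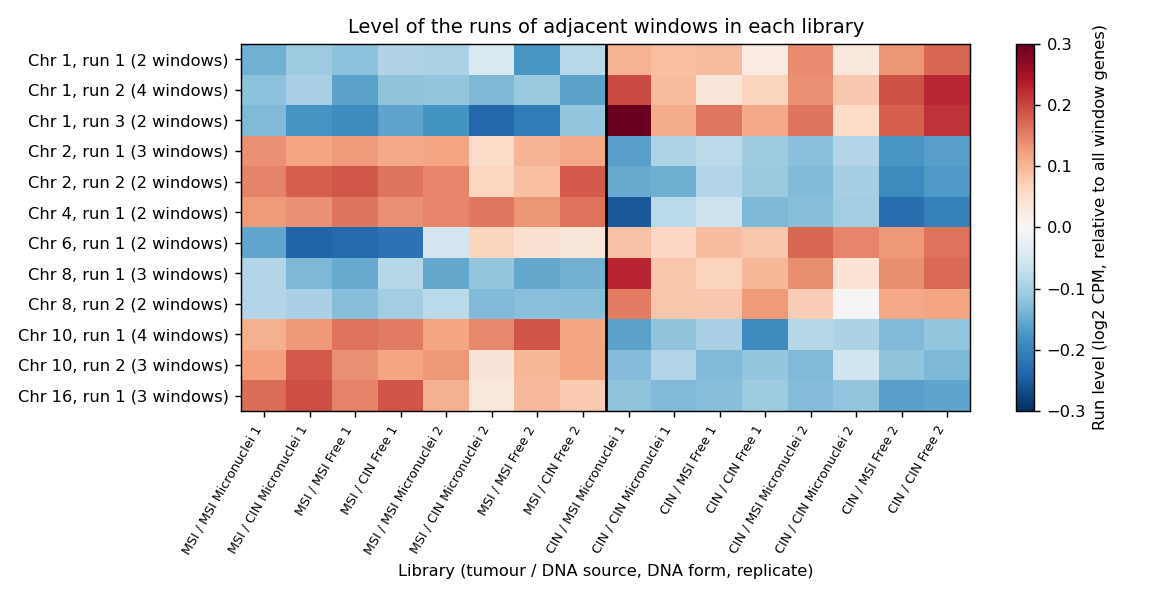
Level of the 12 runs of adjacent windows (rows, numbered along each chromosome) in the 16 libraries (columns, MSI tumours left of the black line and CIN tumours right of it), as colour from -0.3 (blue) to 0.3 (red) in log2 CPM relative to all window genes. Runs on chromosomes 1, 6 and 8 are lower and those on chromosomes 2, 4, 10 and 16 higher in MSI tumours, and on chromosome 6 the MSI libraries numbered 1 are darker blue than those numbered 2.

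Windows of 5 Mb placed the edges of 3 runs more closely. On chromosome 4 the difference was -0.11 in the window that starts at 95 Mb, 0.30 at 100 Mb, 0.29 at 105 Mb, 0.30 at 115 Mb, 0.20 at 120 Mb and 0.02 at 125 Mb, while the chromosome as a whole stood at 0.03. The higher stretch on chromosome 4 thus extended beyond the run to the window at 120 Mb, with a negative value before it and a value near 0 after it. On chromosome 6 the value was 0.08 at 70 Mb, -0.26 at 80 Mb, -0.32 at 85 Mb, -0.29 at 115 Mb and 0.08 at 120 Mb, so the lower stretch extended beyond the run on the side of lower coordinates, through 90 Mb (-0.18) and 95 Mb (-0.23). On chromosome 16 it was 0.25 to 0.27 from 0 to 10 Mb, 0.24 at 20 Mb and 0.01 at 25 Mb. It was 0.20 at 30 Mb, 0.25 at 35 Mb and near 0 at 40 Mb. The value at 25 Mb rested on 5 genes, the minimum, against 37 and 42 in the windows beside it, so no fall is read from it.

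The highest single window was on chromosome 5 from 10 to 20 Mb, at 0.51 ± 0.30, and it rested on 6 genes: Sema3c, Sema3a, Cacna2d1, Cd36, Gnai1 and Magi2. Its genes spread from a lower quartile of -0.27 to an upper quartile of 0.91, and 4 of 6 were higher. The 2 genes called in it were both semaphorins. With genes of at least 1 CPM the value was 0.24. The next highest windows were chromosome 10 from 100 to 110 Mb (0.32 ± 0.06, 11 of 13 genes higher) and chromosome 4 from 110 to 120 Mb (0.31 ± 0.03, 59 of 67). In the first of these the library groups overlapped, and its value was 0.19 without CIN tumour CIN free 1 and 0.19 without MSI tumour MSI micronuclei 2. The lowest were chromosome 1 from 120 to 130 Mb (-0.38 ± 0.12, with 3 of 19 genes higher) and from 40 to 50 Mb (-0.33 ± 0.05, with 5 of 22). At the minimum of 5 genes, the windows just inside were chromosome 14 from 90 to 100 Mb, with 5 genes at 0.05, and chromosome 2 from 40 to 50 Mb, with 6 genes at -0.15. The 4 windows left out had 1 or 2 genes, at 0.35 on chromosome 13, -0.22 on chromosome 14, -0.31 on chromosome 17 and -0.22 on chromosome 18.

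The quartiles of all window genes were -0.22 and 0.21, so the run medians lay near or beyond these quartiles while in each run some genes lay on the other side of 0. In the chromosome 4 run the middle genes, from the lower to the upper quartile, ran from 0.14 to 0.42, and on chromosome 1 from 30 to 70 Mb they ran from -0.46 to -0.02. Single genes were tested with edgeR, and 7.64% of the window genes passed (863 of 11296, against 5.8% of all 18777 genes tested), 3.23% higher and 4.41% lower in MSI tumours (2.32% and 3.48% of all genes tested). Chromosome 1 held 6 called genes higher and 100 lower, chromosome 8 held 8 and 64, chromosome 10 held 70 and 2, and chromosome 16 held 40 and 2. These counts use the contrast that picked out the shifted windows and these chromosomes, so nothing is read from them. Of window genes, 531 (4.7%) had MSI and CIN libraries that did not overlap.

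Named genes are those with the largest called change in the direction of the window, up to 3 in each of the 5 highest and 5 lowest windows, 26 in all. Of these, 13 passed edgeR's test in each of 16 fits that left out 1 library and the other 13 failed in 2 to 14 of those fits. Without the 5 muscle-rich libraries 0 of 26 passed edgeR (adjusted p 0.0791 to 0.628), and with DESeq2 all 26 did. That subset leaves out 4 of the 8 CIN libraries, and in it the log2 fold change was 1.16 for Kitl (1.18 with all libraries), 1.30 for Sema3a (1.44) and 0.67 for Slc35d1 (0.75). Other genes moved more. Tie1 was at 0.51 (0.78 with all libraries), Sf3b5 at 0.31 (0.49) and Arl8b at -0.19 (-0.31), whereas Insig2 grew in size to -0.76 (-0.63). The loss of calls thus went with smaller changes in some genes, and its cause was not tested. Values below are CPM scaled with TMM factors, as the lowest, median and highest of 8 libraries.

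Genes for secreted signals and cell surface proteins included some of the largest differences. Kitl, which encodes the ligand of the Kit receptor (stem cell factor) and lies on chromosome 10 from 100015630 to 100100416, had 94.3, 111 and 135 CPM in MSI tumours against 38.4, 50.8 and 62.4 CPM in CIN tumours. No MSI library came near a CIN library. Sema3a, a secreted semaphorin that guides axons and vessels, had 18.2, 23.6 and 27.1 CPM against 6.98, 8.56 and 11.8 CPM, again without overlap. For its neighbour Sema3c the values were 87.6, 118 and 157 against 39.5, 71.7 and 88.3 CPM, and 2 libraries met at about 88 CPM. Tie1, an endothelial receptor that is also in the endothelial marker list, had 11.6, 16.97 and 22.1 against 4.77, 9.84 and 13.1 CPM, with overlap, and its call was lost in 3 of the 16 fits. Lower in MSI tumours was Il1r1, the receptor of interleukin 1, at 20.97, 34.6 and 43.8 against 50.3, 54.9 and 61.2 CPM, a call lost in 7 of the 16 fits. Gpr39, a zinc-sensing receptor, had 2.44, 3.47 and 5.00 against 5.08, 7.57 and 9.42 CPM. Col5a2, a chain of type V collagen, had 46.4, 68.6 and 115 against 102, 121 and 159 CPM, and its groups overlapped. Fibroblast markers were also lower in MSI tumours, and their part in the Col5a2 value was not tested.

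Other named genes encode enzymes, transporters and proteins of membrane traffic. Slc35d1, a nucleotide sugar transporter on chromosome 4 from 103170649 to 103215164, had 36.4, 43.9 and 51.8 CPM in MSI tumours against 21.2, 26.9 and 31.0 CPM in CIN tumours. In the same window lie Pde4b, which breaks down cyclic AMP, at 23.4, 29.0 and 34.2 against 15.1, 17.4 and 22.2 CPM, and the adaptor gene Fyb2, at 3.27, 8.60 and 12.3 against 0.99, 2.15 and 2.88 CPM. All 3 were without overlap. Rab32, a small GTPase of organelle transport on chromosome 10, had 59.4, 65.8 and 72.0 against 28.4, 44.6 and 50.8 CPM. On the lower side, Capn2, the protease calpain-2 on chromosome 1 from 182467260 to 182517608, had 225, 255 and 283 against 281, 390 and 423 CPM, and a single CIN library reached the MSI range. Agfg1, on chromosome 1 from 82839483 to 82901182, had 92.5, 111 and 137 against 156, 194 and 212 CPM, with a clear gap. Insig2, which holds back the sterol-sensing activation of SREBP, had 43.5, 53.2 and 62.2 against 64.0, 84.7 and 102 CPM. Sh3bp4, a protein of endocytosis, had 36.3, 41.4 and 47.4 against 51.8, 62.3 and 70.9 CPM.

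Among genes of replication and mitosis, Mcm6, a subunit of the replicative helicase, had 157, 217 and 290 CPM in MSI tumours against 266, 373 and 449 CPM in CIN tumours. Cenpf, a kinetochore protein, had 55.1, 91.0 and 121 against 125, 158 and 181 CPM. Both calls were lost in 14 of the 16 fits that left out a library. The remaining named genes were Plk3, Urod, Sf3b5 and Pex7 on the higher side (edgeR log2 fold change 0.45 to 0.57) and Gulp1, Arl8b, Ppp4r2, Rab3gap2 and Dis3l2 on the lower side (-0.83 to -0.30), and each failed in at least 2 of those fits.

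Gene groups tied to the phenotypes of the lines were placed on the same map. Of 19 cancer genes 18 were window genes. By edgeR's test 0 were called higher and 1 lower, against 3.23% and 4.41% of window genes, and 9 had positive fold changes. The called gene was Nf1, a negative regulator of Ras, at 56.7, 76.2 and 83.3 CPM against 82.5, 101 and 129 CPM in CIN tumours. That call was lost in 13 of the 16 fits without a library. Nf1 does not lie in a shifted window (-0.04). The cell cycle kinase gene Cdk4 lies on chromosome 10 in a window at 0.23, and had 199.7, 316 and 413 against 196, 246 and 284 CPM (log2 fold change 0.34 ± 0.18 SE, not called). Mdm2, which encodes a ubiquitin ligase for p53, lies in a neighbouring window at 0.20 and had a fold change of 0.17 ± 0.07 SE, not called. Myc, a transcription factor of growth, had a fold change of -0.01 ± 0.21 SE and lies in a window near 0.

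All 9 mismatch repair genes were window genes. By edgeR 0 of 9 were called, against 7.64% of window genes, and 2 had positive fold changes. Their median log2 fold change was -0.05, against 0.05 for all window genes. Pms1 and Exo1, both on chromosome 1, had fold changes of -0.47 ± 0.18 SE and -0.60 ± 0.24 SE, and Pcna, the sliding clamp, on chromosome 2 had 0.31 ± 0.17 SE. Of 15 genes of the mitotic checkpoint and chromosome segregation 0 were called by edgeR, against the same 7.64%, and 4 had positive fold changes, with a median of -0.04. In lists of 9 and 15 genes a count of 0 lies near that background, and nothing is read from it. Aurka on chromosome 2 and the anaphase activator Cdc20 on chromosome 4 lie in windows higher by at least 0.2, and had 0.18 ± 0.15 SE and 0.26 ± 0.14 SE. Bub1 and Bub1b, in windows at 0.15 and 0.16 on chromosome 2, had 0.16 ± 0.23 SE and -0.01 ± 0.18 SE. The largest changes in the list of 15 were negative, at -0.42 ± 0.22 SE for Cenpe, -0.33 ± 0.17 SE for Kif11 and -0.30 ± 0.20 SE for Sgo1.

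Of 8 genes that sense cytosolic DNA 7 were window genes, and 2 were called higher and 0 lower by edgeR, against 3.23% and 4.41% of window genes. Both lie in runs that were higher in MSI tumours. Zbp1, which recognises left-handed nucleic acid helices, is on chromosome 2 in a window at 0.23, and had 61.8, 106 and 141 CPM in MSI tumours against 35.0, 55.8 and 65.3 CPM in CIN tumours, with overlap at the ends. Tbk1, the kinase that acts downstream of STING, is on chromosome 10 in a window at 0.23, and had 56.0, 65.5 and 73.8 against 41.2, 53.2 and 57.9 CPM, also with overlap. The Tbk1 call was lost in 1 of 16 fits, that without MSI tumour MSI micronuclei 2 (edgeR adjusted p = 0.0523). Without the 5 muscle-rich libraries both calls were lost, with edgeR adjusted p = 0.312 for Tbk1 and 0.130 for Zbp1. The sensor gene Mb21d1 (cGAS) had 6.74, 7.78 and 10.01 against 5.82, 8.19 and 11.8 CPM, and Tmem173 (STING) 47.7, 55.9 and 71.5 against 46.5, 53.6 and 61.9 CPM, and neither pair of groups separated. Of the 7 genes 5 had positive fold changes. Ifi204, on chromosome 1 in a window at -0.12, went the other way, at 25.2, 34.4 and 56.1 against 40.5, 57.1 and 75.1 CPM. Its log2 fold change was -0.57 ± 0.20 SE, not called, and larger in size than that of Tbk1 (0.36).

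Contrasts that the choice of windows did not use were tested over the same 251 windows with limma. For the source of the DNA given with the dendritic cells, 0 of 251 windows passed at an adjusted p of 0.05 (0.0%; 3 at an unadjusted p under 0.05), and the largest difference in size was 0.09. For the form of the DNA it was also 0 of 251 (0 unadjusted), with a largest difference of 0.09. The test had a median standard error of 0.04, so an unadjusted 95% interval reached a median of 0.08 to each side. Differences smaller than a window's own interval were not detectable at that level, and with adjustment over 251 windows larger ones could be missed too. The interval passed 0.2 in size in 13 windows for source and in 8 for form. Whether the tumour difference of a window depended on the treatment was tested as an interaction, and 0 of 251 windows passed for source and 0 of 251 for form (1 unadjusted each, limma). By edgeR 0 of 18777 genes passed for source (209 unadjusted) and 0 for form (148 unadjusted). In the windows' own measure, the median of gene differences, the SD was 0.03 for source and 0.02 for form, against 0.14 for tumour type. None of the 251 windows reached 0.2 for source or form.

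Differences between adjacent windows resembled each other for tumour type more than for treatment. Over 231 pairs of neighbouring windows Pearson's r was 0.66 for tumour type, 0.36 for replicate number, 0.17 for source and 0.10 for form. These pairs share libraries and depth, and r is a description. Chromosomes held 53.0% of the variance between windows for tumour type, 26.0% for replicate number, 17.8% for source and 10.02% for form. In the separate treatments the tumour difference shifted 50 windows with MSI free DNA, 59 with MSI micronuclei, 54 with CIN free DNA and 32 with CIN micronuclei.

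Windows differed more between replicate numbers than between treatments, chiefly within MSI tumours. Over all libraries, number 2 minus number 1 had an SD of 0.08, and 8 windows reached 0.2. Within MSI tumours, 4 libraries against 4, the SD was 0.14, as large as that of the tumour difference in 4 against 4 libraries of number 1 (0.14) and below that in number 2 (0.17), and 35 windows reached 0.2 (23 higher and 12 lower in number 2). Within CIN tumours the SD was 0.07, and 3 windows did. The neighbour r was 0.31 in MSI tumours and 0.21 in CIN tumours. Among chromosomes, 6 and 15 had the largest differences in MSI tumours, at 0.16 and -0.15. They held 8 and 3 of the 35 windows, and the rest lay on other chromosomes. All chromosomes together held 26.6% of the variance between windows in this comparison. Chromosome 6 stood at -0.13 to -0.07 in the MSI libraries numbered 1 and at 0.00 to 0.09 in those numbered 2, and 13 of its 15 windows were higher in number 2. Chromosome 15 stood at 0.01 to 0.11 in number 1 and at -0.12 to -0.01 in number 2, and 11 of 11 windows were lower. In both cases the number 1 and number 2 libraries did not overlap. In CIN tumours chromosome 6 overlapped, at -0.03 to 0.04 and 0.02 to 0.09. Chromosome 15 did not overlap there either, at -0.01 to 0.06 in number 1 and -0.07 to -0.02 in number 2, a difference of -0.05 in the same direction as the -0.15 in MSI tumours. Colon epithelium and smooth muscle markers separated the same MSI libraries, and their part in these values was not tested.

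**Figure D4:**
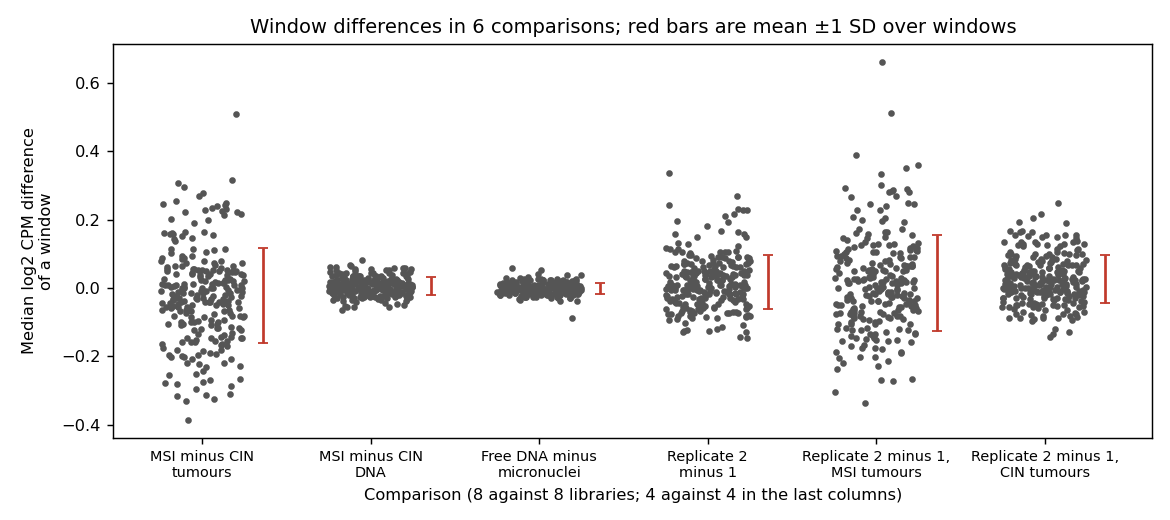
Window differences (vertical axis, log2 CPM) of the 251 windows in 6 comparisons (horizontal axis), as grey points with red bars for the mean ± 1 SD over windows. The SD is 0.14 for tumour type, 0.03 for DNA source, 0.02 for DNA form and 0.08 for replicate number, and 0.14 and 0.07 for replicate number within MSI and CIN tumours (4 against 4 libraries).

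Within each replicate number the tumour difference had the same sign for 156 of all 251 windows (62.2%). Pearson's r between the separate sets of libraries was 0.52 over windows. The values of number 1 were more orderly along the chromosomes than those of number 2. Neighbour r was 0.79 in number 1 and 0.43 in number 2, and chromosomes held 65.1% and 33.8% of the variance. Chromosome 1 was at -0.21 and -0.20, chromosome 8 at -0.19 and -0.18, chromosome 10 at 0.26 and 0.18, chromosome 16 at 0.18 and 0.14 and chromosome 2 at 0.13 and 0.11 in numbers 1 and 2. Chromosome 6 stood at -0.10 and -0.02 and chromosome 15 at 0.08 and -0.05, so the sign of chromosome 15 depended on the libraries. All 12 runs kept their direction, and the chromosome 4 run was 0.25 and 0.31. The runs were picked from the mean over these same libraries, so nothing is read from the directions that they kept.

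**Figure D5:**
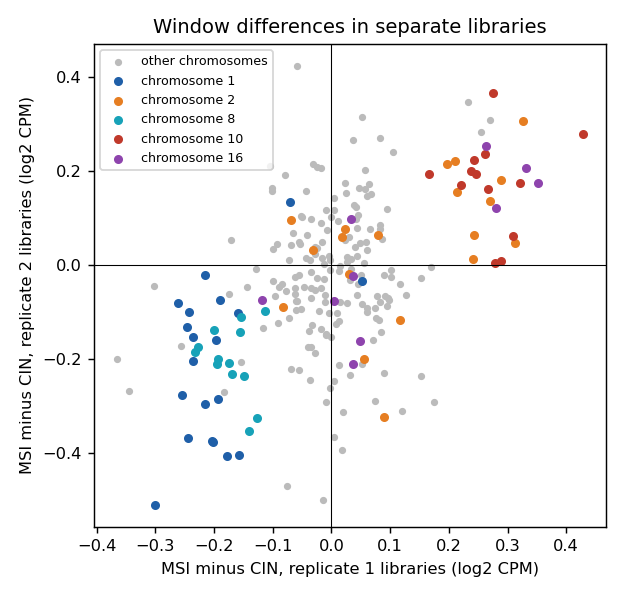
Difference between MSI and CIN tumours of each of the 251 windows in the libraries numbered 1 (horizontal axis) and numbered 2 (vertical axis), both in log2 CPM with 4 libraries per tumour type. Windows of chromosomes 1 (blue) and 8 (cyan) gather at the lower left and those of chromosome 10 (red) at the right and upper right, while the grey windows of other chromosomes spread more along the vertical axis.

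The windows were also compared with part of the tissue content left out in 3 ways. These used only the colon epithelium, smooth muscle and skeletal muscle markers. Endothelial, fibroblast and immune markers were in none of them, so differences in those cells remain in the values. The direction of the 45 shifted windows is largely fixed by their choice from the same libraries, so nothing is read from signs that they kept. Without the 5 muscle-rich libraries the SD over windows was 0.12 and the share lower by at least 0.2 was 4.38%. With marker levels of colon epithelium, smooth and skeletal muscle as covariates 5.18% were lower by at least 0.2. Without the 4183 genes whose level followed a tissue marker list (absolute Pearson's r of at least 0.7), 2 shifted windows, on chromosomes 5 and 14, had too few genes left for a value. In that setting the window on chromosome 10 from 10 to 20 Mb dropped from 0.28 to 0.04, whereas the chromosome 10 run that contains it was 0.29. The chromosome 4 run was 0.21 without the muscle-rich libraries, 0.21 with covariates and 0.30 without the tissue-following genes, and the chromosome 1 run from 30 to 70 Mb was -0.20, -0.20 and -0.27.

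Other properties of the windows tracked the difference only weakly. Pearson's r over the 251 windows was -0.17 with the median expression level of the window's genes and 0.14 with the number of genes. It was 0.06 with median promoter GC content over 239 windows. When the genes of each window were divided into a higher and a lower expressed set, the pair of values had an r of 0.64 over 226 windows and the same sign in 68.1%. Without the genes that edgeR called, the runs lay between -0.24 and -0.16 or between 0.18 and 0.26.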

How the data were processed

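Poly-A selected RNA was sequenced from 16 libraries. The authors deposited whole-number counts per gene, made with featureCounts 1.5.0-p3 after fastp and HISAT2 2.0.5, and with GRCm39 as the build, per the submitters' processing notes. The coordinates in the deposited count table are those of GRCm38. The sources used here give no strand setting, so a gene and an antisense gene that overlaps it could not be told apart. A further 4 columns matched no sample and were not used. The groups came from the sample titles.

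Counts were scaled with TMM factors (edgeR 4.0.16, R 4.3.3), and levels are log2(CPM + 0.5), which understates the change of low genes. Gene tests used edgeR's quasi-likelihood test with 1 mean per group, and window tests used limma 3.58.1, both with Benjamini-Hochberg adjustment at 0.05. At a common biological coefficient of variation of 0.43, the spread between libraries limited precision more than counting. Alternatives were DESeq2 1.42.0, other scalings, pseudocounts, filters, grids and subsets of libraries. Named windows were the 8 highest and 8 lowest, and named genes were chosen by the rule given with them. The windows, lists and rules were chosen with earlier results of these data known. Values of 2 listed genes are not reported here. RefSeq promoters matched 9051 of 11296 genes (80.1%) by symbol or unique synonym.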

Additional observations from a re-analysis of the deposited data

Results flagged for a closer look

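Among 70 sets of 8 libraries (19 chromosomes and 16 windows in each tumour type), 4 held a library whose gap to its nearest neighbour exceeded 0.526 of the set's range. Chance gives about 1 such set in 20. All 4 were in MSI tumours. On chromosome 3 the library MSI free 1 had the highest level, 0.024, with the next at -0.037. The same library was highest on chromosome 18, at 0.035, with the next at -0.045. On chromosome 4 the library CIN micronuclei 2 was lowest, at 0.00495 beside 0.0163, and on chromosome 12 the library MSI micronuclei 1 was lowest, at -0.032 beside -0.014. Without MSI free 1 the difference between tumour types stayed negative on chromosomes 3 and 18 (ranges over all libraries left out -0.09 to -0.07 and -0.14 to -0.11).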

How the results depend on the processing

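The main values were an SD over windows of 0.139, 7.97% of windows higher and 9.96% lower by at least 0.2, 19.5% without overlap, and 1089 genes called by edgeR. The SD was 0.117 with tissue marker covariates, 0.169 in replicate 2 alone, 0.116 without the muscle-rich libraries, 0.116 without called genes and 0.162 in the less expressed genes. Windows lower by at least 0.2 were 5.18% with covariates, 15.9% in replicate 2 alone, 4.38% without the muscle-rich libraries and 6.4% without called genes, which also left 4.8% higher. Windows without overlap were 8.37% with means over genes, 33.9% and 39.4% in replicates 1 and 2 alone (fewer samples), 8.4% without called genes and 11.3% in the less expressed genes. The subsets without called genes and by expression were chosen after seeing the data. Leaving out 1 library gave an SD of 0.128 to 0.146, 5.98 to 9.16% higher, 7.97 to 12.4% lower and 19.5 to 20.7% without overlap. The cause of these moves was not tested, and some alternatives also left fewer samples or genes.

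edgeR called 1778 genes with a replicate block, DESeq2 called 2295, and edgeR called 9 without the muscle-rich libraries. Leaving out 1 library gave 477 (without CIN tumour MSI free 2) to 1758 (without MSI tumour CIN micronuclei 1), and 11 of 16 such fits moved the count by over 1.5 times, 10 of them downwards. limma called 0 windows for source, form and both interactions in the main fit, with the block and in each alternative, 0 to 0 without 1 library. Replicate numbers did not pair the libraries throughout: deviations of same-numbered libraries correlated at 0.71 to 0.92 in MSI tumours but at -0.57 to 0.58 in CIN tumours. The block left the window values as they were, since each group holds both numbers.

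No run, named window or chromosome with separate library groups changed sign, nor did any called gene among the named and listed genes. All of these were picked from the same libraries, so nothing is read from the signs that they kept. Of 608 values for chromosomes under the alternatives 92 moved by more than 1 SD over treatments, as did 52 of 384 for runs and 64 of 507 for windows. Of 1500 values for named and listed genes 165 lost and 8 gained a call. A shift of the grid or another window size changes which genes a window holds, so the named windows have no value under those settings, and the 5-Mb values given above describe other sets of genes. Counting depth was not the limit.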
